A study of Mus musculus with 15 samples.

Results

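The genes described here are 57 mouse genes of DNA repair and meiotic recombination, taken by symbol and sorted into mismatch, crosslink, recombination, damage signalling, end joining, nucleotide excision and base excision repair. Of these, 56 were measured by a probe set that the array annotation assigns to that symbol alone, and Xrcc2 had none. For each gene the probe set with the highest mean over the 15 arrays was used. A total of 52 lay in the upper 50% of probe sets by mean signal and were tested, among 12028 genes that passed the same filter. The 4 below it were Mlh3, Hormad1, Rpa2 and Xpa. The filter stood at a mean log2 level of 3.072; Rpa2, just outside it, had 3.069 and Rad52, just inside, had 3.25. Single arrays ran from -0.35 to 4.33 for Mlh3, -1.62 to 4.49 for Hormad1, -0.02 to 5.02 for Rpa2 and -0.40 to 4.87 for Xpa.

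A fully grown oocyte stores the messages and proteins with which the egg and the early embryo repair their DNA, because its genome is largely silent from late growth until after fertilization. Homologous recombination uses an intact sister or homologous chromosome as template and, in the fetal ovary, also makes the meiotic crossovers. End joining seals breaks without a template, mismatch repair corrects replication errors, the Fanconi anaemia pathway removes crosslinks between strands, and the excision pathways replace damaged nucleotides or bases.

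All oocytes came from female mice of the B6D2F1 hybrid strain given pregnant mare serum gonadotropin (PMSG), which stimulates follicle growth. Metaphase II (MII) oocytes, arrested as ovulated eggs are, had matured in vivo after human chorionic gonadotropin given 48 h after PMSG, or in vitro for 16 h. Germinal vesicle (GV) oocytes, with the nucleus still intact, were taken 48 h after PMSG. The 6 groups were d20 in vitro MII (3 arrays), d26 in vivo MII (2) and in vitro MII (3), and, from adults 7 to 8 weeks old, in vivo MII (3), in vitro MII (2) and GV oocytes (2). Each array held a pool of 150 oocytes, treated with hyaluronidase to strip the cumulus cells. Their RNA was captured by its poly(A) tails and went through a pair of amplification cycles, so that transcript amount, poly(A) tail length and RNA content per oocyte cannot be told apart. The labels do not say whether different animals gave the pools, and the p-values reflect variation among these pools, which could be technical alone.

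Below, a level is the log2 of the intensity after quantile normalization across the 15 arrays, and a difference is between the mean levels of 2 groups. Differences were tested with limma, with Benjamini-Hochberg adjustment over 22519 probe sets, and a gene rose or fell where adjusted p was below 0.05. Of 13 listed oocyte markers 11 had a probe set; Gdf9 and Oosp1 were high in each group, with mean levels of 12.72 to 13.55 and 12.96 to 13.20. Others differed with maturation: Zp2, of the egg coat, averaged 8.58 in adult in vivo MII and 8.21 in adult in vitro MII oocytes, against 13.01 in GV oocytes, and Padi6, a maternal protein of the egg, 6.78 and 6.97, against 12.30. On all adult MII arrays 7 of the 11 in vivo and 9 in vitro stood below both GV arrays. Of all genes tested, 24.2% in vivo and 30.6% in vitro did so. The summed normalized intensity of the 11 markers was 25430 to 33410 in vivo and 18580 to 28840 in vitro, against 68040 to 75900 at GV. Arrays differed in brightness: 4 dim ones (adult in vivo 1, adult in vitro 2, d26 in vitro 2 and 3) had 2615 to 3042 probe sets above an intensity of 200, and the others had 4882 to 9819, the GV arrays being the brightest. The ratio of the 3' to the 5' Gapdh probe set, a measure of RNA integrity and amplification, was 82.3 and 68.0 in d26 in vivo MII oocytes, 3.31 and 2.27 on the dim adult arrays, and 12.6 to 26.8 on the others. The 82.3 divides by a 5' intensity of 0.76, and the 3.31 and 2.27 rest on 3' intensities of 24.6 and 21.6. On d26 in vivo array 2 the 5' intensity was 3.99, beside a 3' intensity of 271.6. Adult in vitro array 1 had a 5' intensity of 3.96 and a ratio of 20.6. How far the ratios at such low intensities follow RNA integrity was not tested. Results on d26 in vivo oocytes carry this limit.

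Meiotic maturation was first examined in adult oocytes. In adult in vivo MII oocytes, set against GV oocytes, 12 of the 52 repair genes rose (23.1%, against 18.3% of all genes tested) and 9 fell (17.3%, against 12.3%). In adult in vitro MII oocytes, set against the same GV oocytes, 12 rose (23.1%, against 18.4%) and 11 fell (21.2%, against 12.9%). At an unadjusted p below 0.05 there were 25 members in vivo (48.1%, against 40% of all genes) and 30 in vitro (57.7%, against 40.8%). On all arrays of the group, 17 members stood above both GV arrays in vivo and 19 below both. These were 32.7% and 36.5%, against 34.3% and 24.2% of all genes. In vitro the counts were 17 and 20 (32.7% and 38.5%, against 38.1% and 30.6%), so arrays without overlap were common among all genes. No test sets these shares apart from those of all genes, and the genes are described one by one. Their median difference was 0.05 in vivo and 0.00 in vitro, beside 0.26 and 0.13 over all genes tested. The largest fitted falls were those of Psmc3ip, an accessory factor of meiotic strand exchange, and of Xrcc5 and Xrcc6, the subunits of the Ku end-joining complex. The largest rises were those of Sycp3, of the synaptonemal complex, and Dmc1, the meiotic recombinase. Psmc3ip passed the signal filter only through the GV arrays and Dmc1 only through the MII arrays, which limits what their calls can show. Both comparisons use the same 2 GV arrays, and they are given side by side.

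**Figure D1:**
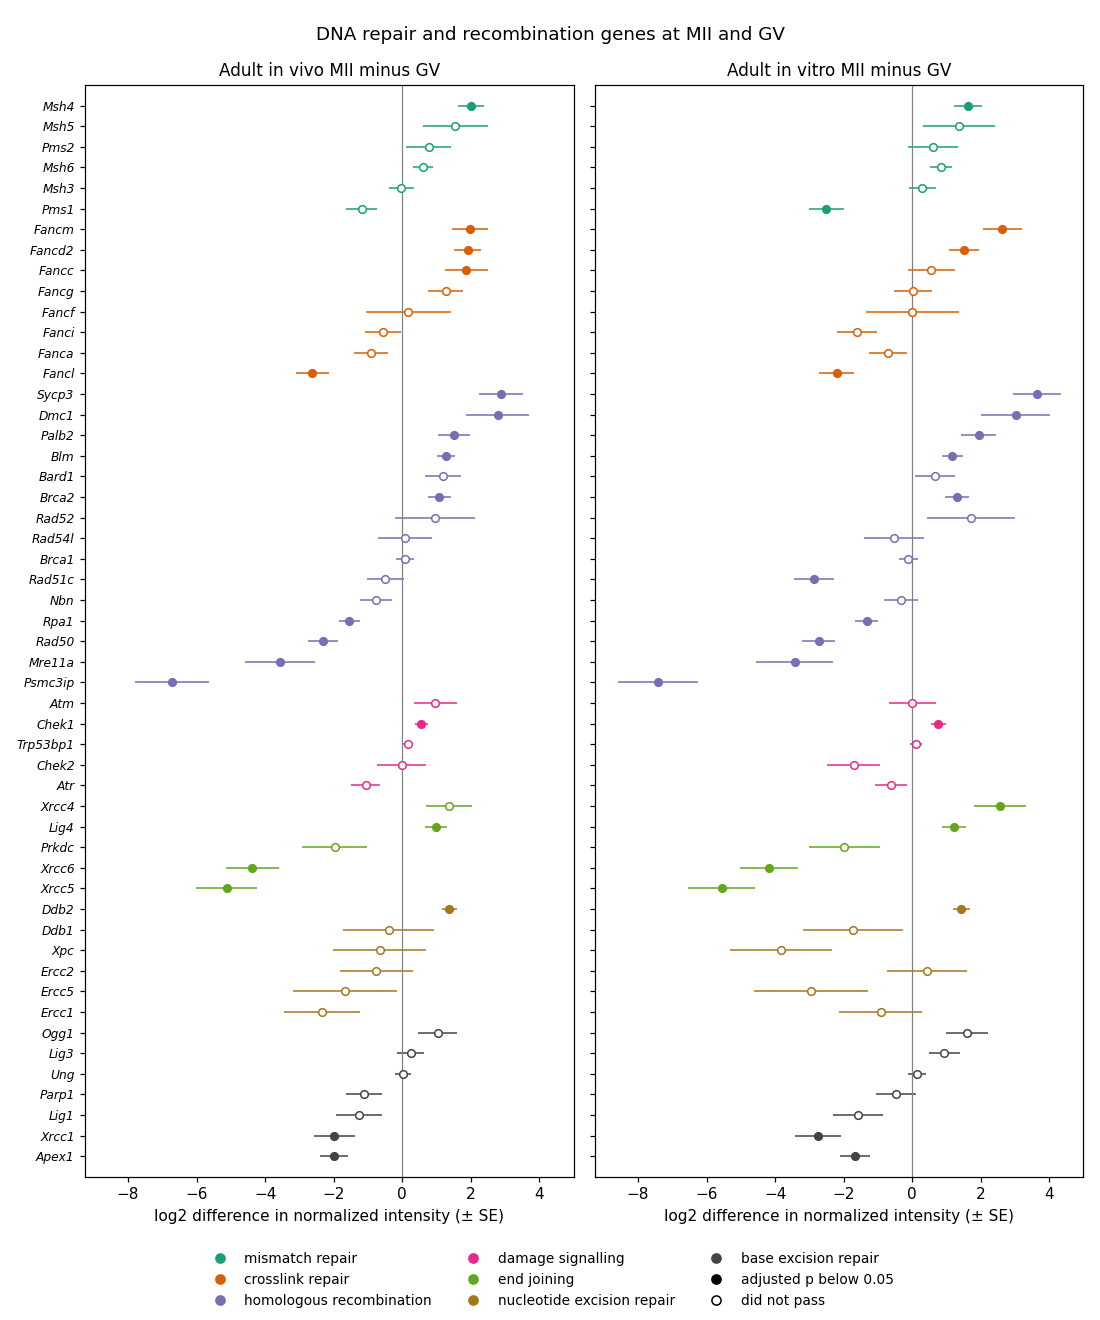
Log2 differences in normalized intensity (± SE) of the 52 tested repair genes, in adult in vivo MII minus GV oocytes on the left and adult in vitro MII minus GV oocytes on the right, coloured by repair class, filled where adjusted p was below 0.05. They run from Psmc3ip at -6.71 in vivo and -7.42 in vitro to Sycp3 at 2.89 and 3.64. Psmc3ip passed the signal filter only through the GV arrays.

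The rises depended on how the arrays were scaled. With intensities as deposited, in vivo MII oocytes showed 0 rises and 12 falls (12 and 9 after quantile normalization), where 0.102% of all probe sets rose and 15.5% fell (15.7% and 11.1%). In vitro MII oocytes showed 0 and 21 (12 and 11), where 0.0488% of all probe sets rose and 27.6% fell (16% and 11.7%). The median difference over all tested probe sets was then -0.98 in vivo and -1.94 in vitro, beside 0.24 and 0.13 after quantile normalization. With each array centred on its median, 3 rose and 17 fell in vivo (5.35% and 17.2% of all probe sets) and 6 rose and 17 fell in vitro (5.84% and 19.8%), at medians over all probe sets of -0.21 and -0.53. Of the falls, 7 of 9 in vivo (not Xrcc1 and Rpa1) and 10 of 11 in vitro (not Rpa1) passed under all 3 scalings, and of the rises 0 of 12 in each. As deposited, 9 of 12 rises in vivo and 3 of 12 in vitro (Sycp3, Dmc1 and Chek1) stayed above 0. A rise below is therefore one relative to the other genes on the array.

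**Figure D2:**
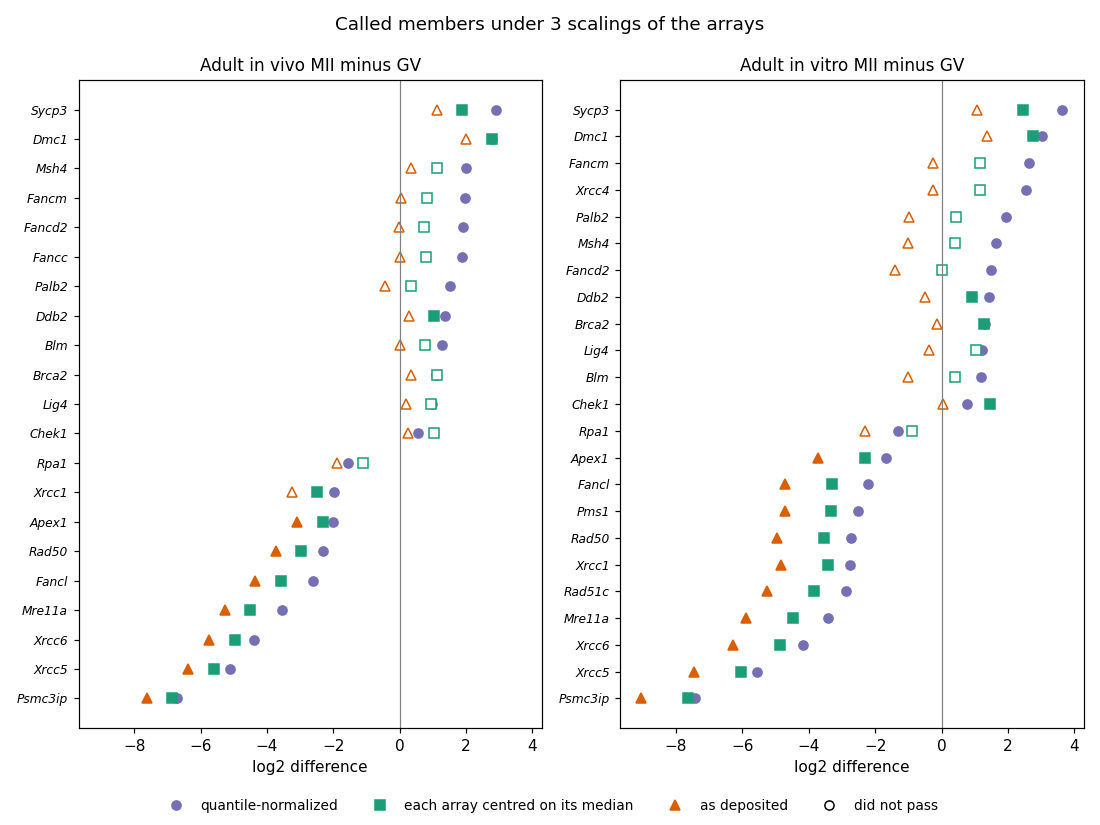
Log2 differences of the members that passed after quantile normalization, in adult in vivo MII minus GV oocytes (left) and adult in vitro MII minus GV oocytes (right), with the arrays quantile-normalized, centred on their medians or as deposited, filled where adjusted p was below 0.05. Psmc3ip, Xrcc5 and Xrcc6 passed under all 3 scalings, and the open triangles of the 12 rises in each panel show that 0 passed as deposited.

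Some markers of other cells moved with the same contrast. The summed normalized intensity of 8 of 8 leukocyte markers was 345.4 to 772.7 on the adult in vivo MII arrays and 141.6 to 155.9 on the adult in vitro MII arrays, against 63.3 to 71.4 on the GV arrays. On all arrays of the group, 6 of the 8 in vivo and 3 in vitro stood above both GV arrays, and 0 stood below both. Of all genes tested, 34.3% in vivo and 38.1% in vitro stood above both, and 24.2% and 30.6% below both. Only 4 of the 8 passed the signal filter, and Ptprc, S100a8, S100a9 and Tyrobp did not. For 13 of 15 cumulus cell markers the sum was 406.5 to 793.3 in vivo and 554.7 to 892.6 in vitro, against 219.5 to 224.0 at GV, and Kitl alone made up 48% of it in vivo and 56.4% in vitro. Of these 13, 4 in vivo (Ptx3, Has2, Ptgs2 and Kitl) and 6 in vitro stood above both GV arrays, and 0 in vivo and 2 in vitro (Fst and Fshr) below both. The same shares of all genes apply, and 9 of the 13 passed the signal filter. For 6 of 6 markers of oviduct epithelium the sum was 2818 to 5290 in vivo and 3382 to 3430 in vitro, against 1386 to 1721 at GV, but Cdh1 made up 90.6% of it in vivo and 97.8% in vitro. Without Cdh1 the sum was 141.9 to 491.6 in vivo and 25.4 to 121.8 in vitro, against 89.73 to 99.99 at GV, so in vitro it overlapped GV, and Krt8 stood below both GV arrays in each group. No value was 0, and the part of these cells in the results on repair genes was not tested. Without the 4 dim arrays, 15 members rose and 11 fell in vivo (23.4% and 15.5% of all probe sets), and Brca2 missed the threshold there (adjusted p = 0.0612). Of the adult and d26 in vitro groups that setting keeps array 1 alone, so its counts in vitro are not given. Xrcc4 then differed by 1.99 in vitro.

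The promoters of the 4 genes with the largest fitted rises (Sycp3, Dmc1) and falls (Psmc3ip, Xrcc5) in both comparisons are shown here, 250 bases before and 50 after the annotated start, 5′ to 3′ on the gene's strand, from RefSeq on GRCm38.p6. Capitals mark matches on either strand to an E2F motif (TTTCCCGC, TTTCGCGC, TTTGCCGC or TTTGGCGC), the CCAAT box (CCAAT), the GC box (GGGCGG), the cyclic AMP response element (TGACGTCA) or the E-box (CACGTG).
Sycp3 lies at chr10:88459337-88459636, plus strand, and Dmc1 at chr15:79605060-79605359, minus strand. Each holds 1 E2F match. Sycp3 also holds 1 CCAAT match, 1 GC box and 2 E-boxes, and Dmc1 holds 3 GC boxes.
Sycp3: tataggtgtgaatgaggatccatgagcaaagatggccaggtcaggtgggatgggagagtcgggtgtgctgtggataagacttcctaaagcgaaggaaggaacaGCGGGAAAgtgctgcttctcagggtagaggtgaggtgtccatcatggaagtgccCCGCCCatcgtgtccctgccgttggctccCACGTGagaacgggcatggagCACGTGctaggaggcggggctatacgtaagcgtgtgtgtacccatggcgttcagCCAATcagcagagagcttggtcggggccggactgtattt
Dmc1: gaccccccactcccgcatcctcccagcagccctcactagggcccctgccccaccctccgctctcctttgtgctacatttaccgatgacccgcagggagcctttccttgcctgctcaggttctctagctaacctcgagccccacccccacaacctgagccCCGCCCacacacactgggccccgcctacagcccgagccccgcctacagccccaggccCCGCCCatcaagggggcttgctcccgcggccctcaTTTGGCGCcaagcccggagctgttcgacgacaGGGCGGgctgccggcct
Psmc3ip lies at chr11:101095386-101095685, minus strand, and Xrcc5 at chr1:72307171-72307470, plus strand. Each holds 1 CCAAT match and no match to the E2F letters, and Xrcc5 also holds 1 E-box.
Psmc3ip: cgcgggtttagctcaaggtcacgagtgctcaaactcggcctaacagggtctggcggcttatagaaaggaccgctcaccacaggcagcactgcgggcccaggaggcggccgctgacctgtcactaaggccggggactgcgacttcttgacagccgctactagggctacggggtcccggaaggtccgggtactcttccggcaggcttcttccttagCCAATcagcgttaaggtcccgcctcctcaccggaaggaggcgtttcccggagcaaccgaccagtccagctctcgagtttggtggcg
Xrcc5: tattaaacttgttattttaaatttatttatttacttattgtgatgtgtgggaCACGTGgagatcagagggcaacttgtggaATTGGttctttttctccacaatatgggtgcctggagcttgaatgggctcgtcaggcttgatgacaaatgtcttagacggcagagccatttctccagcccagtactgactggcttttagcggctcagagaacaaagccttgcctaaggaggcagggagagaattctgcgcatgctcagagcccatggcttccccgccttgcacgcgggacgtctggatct
Of the 57 genes, 50 had a promoter among the 27025 of the table. An E2F match stood in 22% of the 50 and in 2.32% of all promoters, a CCAAT match in 56% and 37.9%, a GC box in 64% and 35.9%, an E-box in 16% and 7.24%, and the cyclic AMP element in 4% and 1.88%. The median GC content was 59.8% in the 50 and 52.7% in all. Of the 13 members that rose in either comparison 11 had a promoter, and 3 of these held an E2F match and 5 a CCAAT match. Of the 11 that fell 10 had one, and 2 of these held an E2F match and 8 a CCAAT match. These counts were not tested. Matched letters describe these windows and say nothing of a factor bound there.

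Homologous and meiotic recombination was the largest class, with 15 genes tested. In vivo 5 of these rose (33.3%, against 18.3% of all genes) and 4 fell (26.7%, against 12.3%). In vitro 5 rose (33.3%, against 18.4%) and 5 fell (33.3%, against 12.9%). The class shares here and below rest on few genes and were not tested against those of all genes. The same class held both the largest fitted fall (Psmc3ip) and the largest fitted rises (Sycp3 and Dmc1). Psmc3ip and Dmc1, which these shares count, passed the signal filter only through the arrays where they were high.

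Psmc3ip, known as Hop2, helps Dmc1 to pair a broken strand with its homologue. Its levels were 3.67, 3.46 and 2.52 in adult in vivo MII oocytes and 3.50 and 1.51 in adult in vitro MII oocytes, against 9.95 and 9.90 in GV oocytes. The MII arrays lay around the signal filter and far below both GV arrays, with no overlap. The fitted difference was -6.71 in vivo (SE 1.08, adjusted p = 0.000369) and -7.42 in vitro (SE 1.18, adjusted p = 0.000360). The gene passed the signal filter only through the GV arrays, since the 13 MII arrays averaged 2.73, so it had to differ once it was tested. It also passed in 25 of 25 other settings in each comparison. These reuse the same arrays, and only the setting with no filter lifts that condition, so they are no independent support. The size of the fall rests on MII intensities that may not be above background and is no exact fold. The younger MII groups were low as well, at 3.89, 1.72 and 3.53 in d20 in vitro, 4.40 and 3.72 in d26 in vivo, and -0.58, 3.45 and 0.64 in d26 in vitro oocytes. This probe set can match more than 1 transcript.

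Dmc1, the recombinase that acts only in meiosis, had levels of 3.10, 5.0 and 5.35 in adult in vivo and 3.84 and 5.59 in adult in vitro MII oocytes, against 1.77 and 1.61 in GV oocytes. Both GV arrays lay below each adult MII array, at levels under the signal filter. It passed the signal filter only through the MII arrays. It rose by 2.79 in vivo (SE 0.92, adjusted p = 0.0350) and by 3.02 in vitro (SE 1.01, adjusted p = 0.0358). The call in vivo ended without adult in vivo array 2 or 3 or either GV array (adjusted p 0.0947 to 0.160), and in vitro without adult in vitro array 2 or either GV array (0.113 to 0.258). Both also ended with no signal filter (0.0587 in vivo and 0.0611 in vitro) and with the compared arrays alone (0.0647 in vivo and 0.0686 in vitro).

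Sycp3, a structural protein of the chromosome axes along which homologues pair, had levels of 10.86, 9.03 and 8.83 in adult in vivo and 9.56 and 11.09 in adult in vitro MII oocytes, against 6.63 and 6.73 in GV oocytes. The highest in each MII group was its dim array, and the others also lay above both GV arrays. The rise was 2.89 in vivo (SE 0.64, adjusted p = 0.00362) and 3.64 in vitro (SE 0.71, adjusted p = 0.00137), and both calls held without any single array. Levels at d20 in vitro were 9.33, 9.80 and 9.49, at d26 in vivo 10.12 and 8.76, and at d26 in vitro 9.42, 11.11 and 9.58, all above the GV arrays.

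Mre11a and Rad50 encode 2 parts of the complex that recognizes and trims broken ends. Mre11a had 3.67, 3.94 and 2.09 in vivo and 2.03 and 4.68 in vitro, against 6.59 and 6.99 in GV oocytes. Rad50 had 6.79, 6.17 and 6.84 in vivo and 6.83 and 5.51 in vitro, against 8.95 and 8.86 in GV oocytes. For both genes the MII and GV arrays did not overlap. The 13 MII arrays averaged 3.39 for Mre11a, near the signal filter, so the size of its fall is no exact fold. Mre11a fell by 3.56 in vivo (SE 1.02, adjusted p = 0.0176) and by 3.43 in vitro (SE 1.12, adjusted p = 0.0329). Rad50 fell by 2.31 in vivo (SE 0.44, adjusted p = 0.00123) and by 2.73 in vitro (SE 0.48, adjusted p = 0.000716). The Mre11a calls ended without adult in vivo array 3 (adjusted p = 0.0662) or adult in vitro array 1 (0.244) and without either GV array (0.0855 to 0.168), and in vitro with no filter (0.0505). A second, dimmer probe set of each gene did not pass: the differences were -0.38 in vivo and 0.83 in vitro for Mre11a, and -1.30 in vivo and -0.11 in vitro for Rad50. Nbn, the remaining subunit, differed by -0.77 in vivo and -0.32 in vitro and did not pass.

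Rad51c, which acts in homologous recombination, had levels of 6.61, 7.41 and 6.82 in adult in vivo and 5.45 and 3.69 in adult in vitro MII oocytes, against 7.42 and 7.47 in GV oocytes. The in vivo arrays lay just under the GV arrays and the in vitro arrays well under both. It fell in vitro by 2.87 (SE 0.59, adjusted p = 0.00207), and the difference in vivo was -0.50 (SE 0.54, adjusted p = 0.575).

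Palb2, which links Brca1 to Brca2, had 7.24, 8.30 and 7.90 in vivo and 7.93 and 8.56 in vitro, against 6.63 and 5.98 in GV oocytes. No MII array reached down to the GV arrays. It rose by 1.51 in vivo (SE 0.47, adjusted p = 0.0266) and by 1.94 in vitro (SE 0.52, adjusted p = 0.0109). Brca2, a mediator of homologous recombination, rose by 1.08 in vivo and 1.31 in vitro, and Blm, a helicase that takes apart recombination intermediates, by 1.28 in vivo and 1.18 in vitro. Rpa1, the large subunit of the single-strand binding protein, fell by 1.55 in vivo and 1.32 in vitro. Leaving out 1 array ended several of these calls. Palb2 in vivo lost its call without adult in vivo array 2 or 3 or either GV array (adjusted p 0.0551 to 0.240), and in vitro without adult in vitro array 2 or GV array 2 (0.0920 and 0.109). Brca2 lost it in vivo without adult in vivo array 1 or 3 or GV array 1 (0.0618 to 0.245), and in vitro without either adult in vitro array or GV array 1 (0.0515 to 0.136). Blm in vitro lost it without adult in vitro array 1 or GV array 2 (0.0798 and 0.0856), and Rpa1 in vitro without adult in vitro array 2 or GV array 1 (0.0820 and 0.0662). With the compared arrays alone, Palb2 and Brca2 missed the threshold in vivo (0.0602 and 0.0615) and Blm in vitro (0.0506). Without the intensity trend in the variances, Brca2 missed it in vivo (0.0785) and in vitro (0.0525). A second Rpa1 probe set differed by -2.08 in vivo and -2.38 in vitro without passing. Brca1, Bard1, Rad52 and Rad54l did not pass in either comparison. Brca1, the ubiquitin ligase partner of Bard1, differed by 0.08 in vivo (SE 0.26) and -0.11 in vitro (SE 0.28).

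In the end-joining class of 5 genes, in vivo MII oocytes showed 1 rise (20%, against 18.3% of all genes) and 2 falls (40%, against 12.3%). In vitro MII oocytes showed 2 of each (40%, against 18.4% and 12.9%). Xrcc5 and Xrcc6 together form the ring that binds broken ends. Xrcc5 had levels of 4.27, 3.21 and 3.31 in adult in vivo and 2.48 and 3.83 in adult in vitro MII oocytes, against 8.51 and 8.93 in GV oocytes. Xrcc6 had 3.67, 4.06 and 4.67 in vivo and 5.36 and 3.33 in vitro, against 8.61 and 8.42 in GV oocytes. For both subunits every adult MII array lay far below the lower GV array. The 13 MII arrays averaged 3.41 for Xrcc5, near the signal filter, and 4.33 for Xrcc6. The MII intensities of Xrcc5 may not be above background, so the size of its fall is no exact fold. Xrcc5 fell by 5.12 in vivo (SE 0.90, adjusted p = 0.000670) and 5.56 in vitro (SE 0.98, adjusted p = 0.000722). Xrcc6 fell by 4.38 in vivo (SE 0.77, adjusted p = 0.000723) and 4.17 in vitro (SE 0.85, adjusted p = 0.00192), and these 4 calls held without any single array. Prkdc, the kinase that Ku recruits, differed by -1.97 in vivo (SE 0.95, adjusted p = 0.150) and -1.98 in vitro (SE 1.04, adjusted p = 0.184). Its MII arrays also lay below both GV arrays, as did those of 24.2% of all genes in vivo and 30.6% in vitro.

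Xrcc4 and Lig4 are the scaffold and the ligase of the last step. Xrcc4 had 8.95, 6.33 and 7.80 in adult in vivo and 8.28 and 9.49 in adult in vitro MII oocytes, against 5.96 and 6.69 in GV oocytes. The in vivo arrays overlapped the GV arrays and the in vitro arrays did not. It rose in vitro by 2.56 (SE 0.75, adjusted p = 0.0183), and the difference in vivo was 1.37 (SE 0.68, adjusted p = 0.166). A second Xrcc4 probe set rose in both, by 1.68 in vivo and 2.18 in vitro. Lig4 rose by 0.99 in vivo (SE 0.33, adjusted p = 0.0355) and by 1.22 in vitro (SE 0.36, adjusted p = 0.0188). The Lig4 calls ended without adult in vivo array 1, adult in vitro array 2 or either GV array (adjusted p 0.0580 to 0.210), and without the trend in vivo (0.103) and in vitro (0.0661). In vivo the Lig4 call also ended with no filter (0.0527) and with the compared arrays alone (0.101). The Xrcc4 call ended without adult in vitro array 2 or GV array 1 (0.159 and 0.131).

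**Figure D3:**
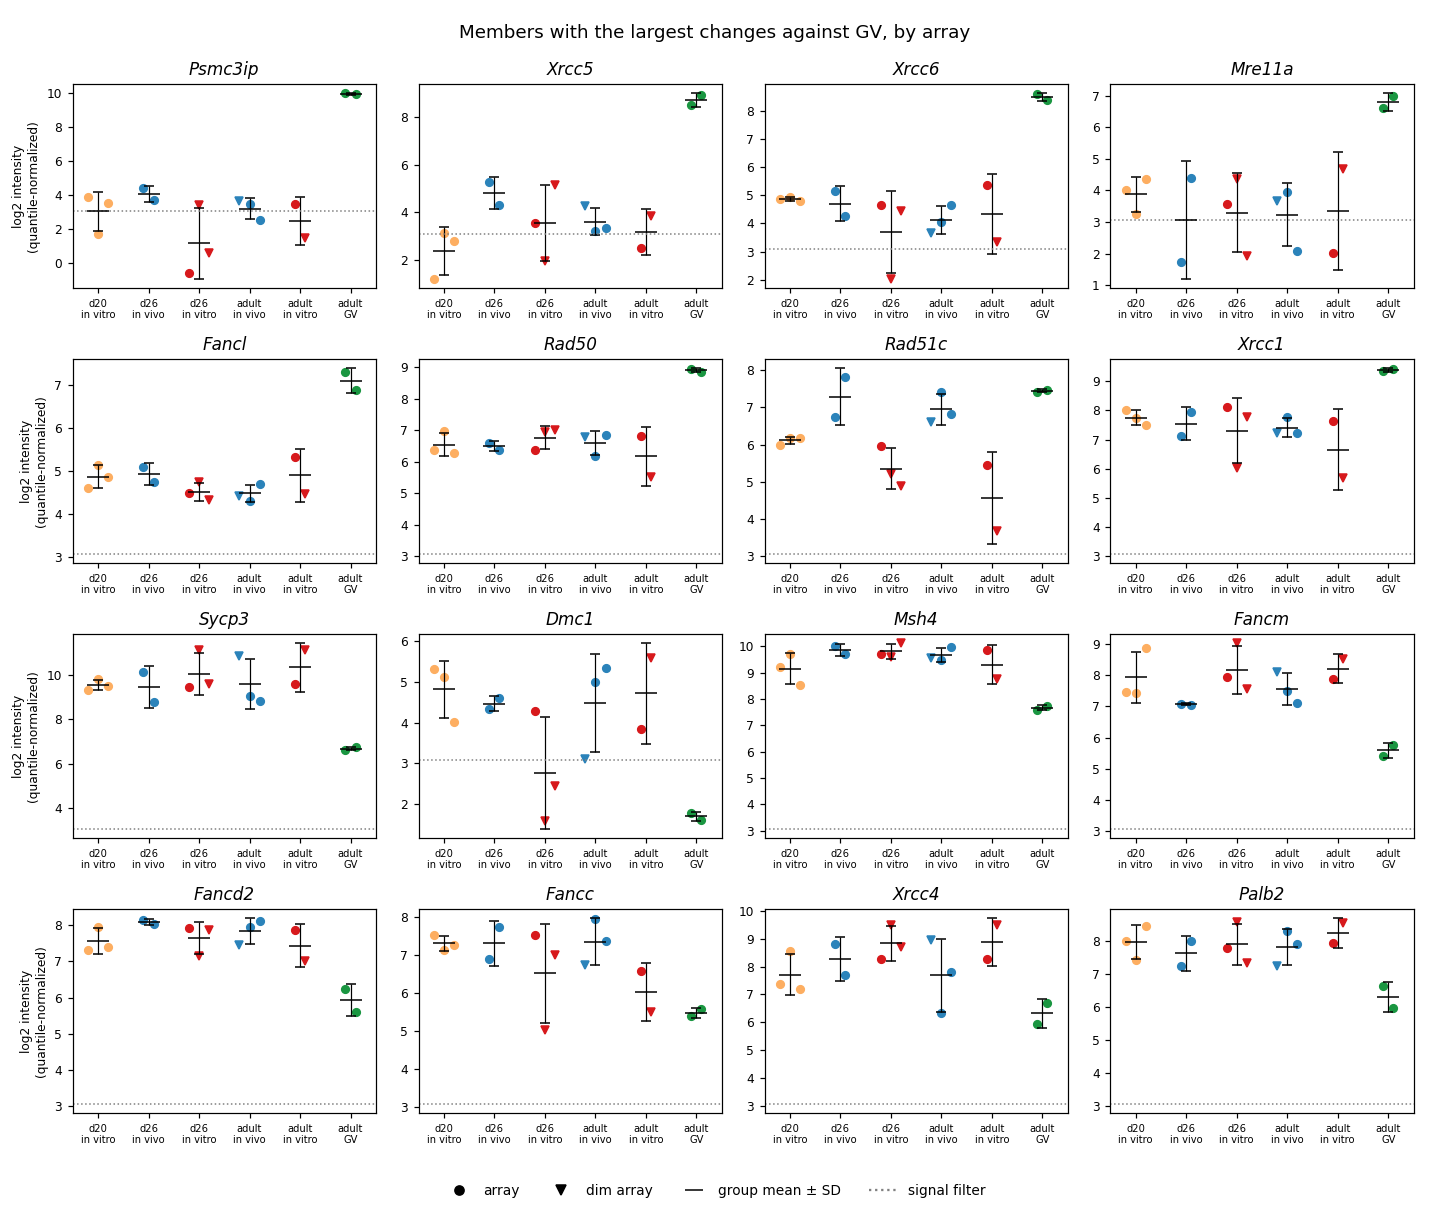
Log2 level on each array (points, with triangles for the 4 dim arrays), with group mean ± SD and the signal filter as a dotted line, for the 16 members among the 6 largest rises or falls against GV in either comparison, across the 5 MII groups and adult GV oocytes. In the panels of Psmc3ip, Xrcc5 and Xrcc6 both GV arrays stand at 8.42 or above and each MII array at 5.36 or below, and in that of Sycp3 each MII array stands at 8.76 or above and both GV arrays at 6.73 or below.

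In vivo 3 of the 8 crosslink repair genes rose (37.5%, against 18.3% of all genes) and 1 fell (12.5%, against 12.3%). In vitro 2 rose (25%, against 18.4%) and 1 fell (12.5%, against 12.9%). Fancd2 and Fanci form the clamp that the pathway places on DNA, and Fancl carries the ubiquitin ligase activity that locks it. Fancl had 4.43, 4.31 and 4.70 in vivo and 5.33 and 4.46 in vitro, against 7.31 and 6.89 in GV oocytes. Fancd2 had 7.44, 7.96 and 8.12 in vivo and 7.86 and 7.01 in vitro, against 6.24 and 5.62 in GV oocytes. Neither gene's arrays overlapped, with Fancl lower and Fancd2 higher on each adult MII array. Fancl fell by 2.62 in vivo (SE 0.47, adjusted p = 0.000817) and by 2.20 in vitro (SE 0.52, adjusted p = 0.00499). Fancd2 rose by 1.91 in vivo (SE 0.40, adjusted p = 0.00249) and by 1.51 in vitro (SE 0.44, adjusted p = 0.0189). Its second probe set differed by 0.39 in vivo and -0.11 in vitro and did not pass. Fanci differed by -0.55 in vivo (adjusted p = 0.518) and -1.61 in vitro (adjusted p = 0.0502), the second just outside the threshold.

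Fancm, a translocase that brings the core complex to stalled forks, had 8.10, 7.49 and 7.10 in vivo and 7.89 and 8.54 in vitro, against 5.42 and 5.77 in GV oocytes. Each adult MII array stood above both GV arrays. It rose by 1.97 in vivo (SE 0.52, adjusted p = 0.0103) and by 2.62 in vitro (SE 0.57, adjusted p = 0.00292), but the next probe set differed by 0.37 in vivo and -2.15 in vitro and did not pass. Fancc, of the core complex, had 6.72, 7.95 and 7.36 in vivo and 6.57 and 5.48 in vitro, against 5.38 and 5.56 in GV oocytes. The in vivo arrays lay above the GV arrays and the in vitro arrays overlapped them. It rose in vivo by 1.87 (SE 0.63, adjusted p = 0.0394), and the difference in vitro was 0.56 (adjusted p = 0.618). Of its 2 other probe sets, one differed by -2.38 in vivo without passing and fell in vitro by 4.42 (adjusted p = 0.0344), so the probe sets of Fancc disagree. Calls ended without 1 array for Fancl in vitro (GV array 1, adjusted p = 0.0573), Fancd2 in vivo (GV array 2, 0.0537) and in vitro (adult in vitro array 1 or GV array 2, 0.144 and 0.171), Fancm in vivo (either GV array, 0.0941 and 0.0524) and Fancc (adult in vivo array 2 or 3, either GV array, or any d20 array, 0.0514 to 0.181). Fancc in vivo also missed the threshold with a block for the number that each title carries, of unknown meaning (0.0504), with no filter (0.0539) and without the trend (0.0628), and Fancd2 in vitro with the compared arrays alone (0.0710). Fanca, Fancf and Fancg, of the same core complex, did not pass.

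Among 6 mismatch repair genes, 1 rose in vivo (16.7%, against 18.3% of all genes). In vitro 1 rose (16.7%, against 18.4%) and 1 fell (16.7%, against 12.9%). Msh4, which acts with Msh5 on meiotic crossovers rather than on mismatches, had 9.55, 9.49 and 9.99 in vivo and 9.85 and 8.78 in vitro, against 7.60 and 7.76 in GV oocytes. All adult MII arrays stood clearly above both GV arrays. It rose by 2.00 in vivo (SE 0.38, adjusted p = 0.00110) and by 1.63 in vitro (SE 0.41, adjusted p = 0.00769), a call that ended without adult in vitro array 1 or GV array 1 (0.0944 and 0.0545). Pms1, a mismatch repair protein, had 8.65, 7.58 and 8.22 in vivo and 7.20 and 6.45 in vitro, against 9.22 and 9.44 in GV oocytes. Its MII arrays lay below the GV arrays in both groups. It fell in vitro by 2.50 (SE 0.50, adjusted p = 0.00176), and the difference in vivo was -1.18 (SE 0.46, adjusted p = 0.0724). Msh5 differed by 1.55 in vivo (SE 0.96) and 1.36 in vitro (SE 1.05) and did not pass, nor did Msh3, Msh6 and Pms2. Of 2 other Pms2 probe sets, one rose in vitro by 2.03 (adjusted p = 0.0379) and the other differed by -2.21 in vivo and -1.38 in vitro without passing, so the probe sets of Pms2 disagree. Msh6, which takes part in finding mismatches, differed by 0.61 in vivo (adjusted p = 0.150) and 0.85 in vitro (adjusted p = 0.0646).

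Base excision repair held 2 falls among 7 genes in each comparison (28.6%, against 12.3% of all genes in vivo and 12.9% in vitro). Its rises were 0 in each (against 18.3% and 18.4%). Xrcc1, the scaffold of single-strand break repair, had 7.24, 7.78 and 7.21 in vivo and 7.63 and 5.66 in vitro, against 9.34 and 9.43 in GV oocytes. Apex1, which cuts at abasic sites, had 8.71, 8.15 and 7.39 in vivo and 8.01 and 8.82 in vitro, against 10.33 and 9.83 in GV oocytes. Both genes were lower on each adult MII array than on either GV array. Xrcc1 fell by 1.98 in vivo (SE 0.61, adjusted p = 0.0244) and by 2.74 in vitro (SE 0.66, adjusted p = 0.00611). Apex1 fell by 2.00 in vivo (SE 0.41, adjusted p = 0.00194) and by 1.66 in vitro (SE 0.45, adjusted p = 0.0113), and its 2 other probe sets fell in both comparisons, by 1.82 to 2.18. Xrcc1 lost its calls without adult in vivo array 1 or 3 or either GV array (adjusted p 0.0537 to 0.132, in vivo) or without adult in vitro array 2 (0.103, in vitro), and Apex1 in vitro without adult in vitro array 1 or GV array 1 (0.0982 and 0.107). Ung, which removes uracil from DNA, differed by 0.03 in vivo (SE 0.23) and 0.14 in vitro (SE 0.26). Lig3, the partner ligase of Xrcc1, differed by 0.25 in vivo and 0.94 in vitro without passing, but its second probe set fell in vivo by 3.00 (adjusted p = 0.00323), so its probe sets disagree. Lig1, Ogg1 and Parp1 did not pass.

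In nucleotide excision repair, 1 of 6 genes rose in each comparison (16.7%, against 18.3% of all genes in vivo and 18.4% in vitro). That gene was Ddb2, which binds ultraviolet lesions in chromatin, with 10.98, 10.70 and 10.54 in vivo and 10.89 and 10.70 in vitro, against 9.48 and 9.24 in GV oocytes. The 5 adult MII arrays lay close together and above both GV arrays. It rose by 1.38 in vivo (SE 0.22, adjusted p = 0.000377) and by 1.43 in vitro (SE 0.24, adjusted p = 0.000549), and both calls held without any single array. A second Ddb2 probe set rose in vivo by 1.29 (adjusted p = 0.0404) and differed by 0.64 in vitro without passing (adjusted p = 0.371). Xpc, which finds distorted helices, differed by -0.66 in vivo and -3.82 in vitro (SE 1.36 and 1.49, adjusted p = 0.791 and 0.0721). Its level on the dim adult in vitro array 2 was 0.31 and on array 1 6.70. Ddb1, Ercc1, Ercc2 and Ercc5 did not pass. Xpa, which verifies the damage, lay under the filter, with 3.09, 0.29 and 1.25 in vivo and -0.40 and 1.00 in vitro, against 4.42 and 4.87 in GV oocytes. Its adult MII and GV arrays did not overlap, while the higher d26 in vivo array stood at 4.72. With no filter it passed in vitro, at -4.35 (adjusted p = 0.0151).

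Of 5 damage signalling genes, 1 rose in each comparison (20%, against 18.3% of all genes in vivo and 18.4% in vitro). Chek1, the kinase that Atr activates, had 13.28, 12.99 and 13.02 in vivo and 13.14 and 13.46 in vitro, against 12.53 and 12.55 in GV oocytes. The groups did not overlap. It rose by 0.56 in vivo (SE 0.19, adjusted p = 0.0463) and by 0.76 in vitro (SE 0.21, adjusted p = 0.0145). The call in vivo ended in 11 of 15 settings that left out 1 array (adjusted p up to 0.185), and in vitro without adult in vitro array 2 or either GV array (0.0689 to 0.125). Both calls ended without the trend (0.228 in vivo and 0.124 in vitro), and the one in vivo with no filter (0.106) and with the compared arrays alone (0.0774). Of 4 other Chek1 probe sets, one rose in both comparisons, by 1.12 in vivo and 1.15 in vitro. One rose in vivo (1.72), one rose in vitro (3.85), and one differed by -1.01 in vivo and -1.12 in vitro without passing. Trp53bp1, a chromatin reader at breaks, differed by 0.17 in vivo (SE 0.15) and 0.11 in vitro (SE 0.17), the smallest SEs among the members. With each array centred on its median, it passed in vitro, at 1.12 (adjusted p = 0.0326). Its other tested probe sets differed by 0.27 to 1.77 in vivo and -1.03 to 1.28 in vitro, without passing. Atm, Atr and Chek2 did not pass.

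The genes of repair and recombination outside the 57 give the wider setting. Of 110 listed, 95 had a probe set and 82 were tested. In each comparison 14 rose (17.1%, against 18.3% of all genes in vivo and 18.4% in vitro). In each 18 fell (22%, against 12.3% and 12.9%). The median differences were -0.48 in vivo and -0.24 in vitro, beside 0.26 and 0.13 over all genes tested. The largest falls in vivo were those of Mus81 (-5.60), a nuclease of branched DNA, Topbp1 (-4.60), an activator of Atr, and Fen1 (-3.71), a flap nuclease. In vitro, Mus81 (-6.93), the TFIIH helicase Ercc3 (-5.72), Topbp1 (-5.54) and the Xpc partner Cetn2 (-5.46) fell most. Sycp1, the filament that joins the axes carrying Sycp3, rose by 2.23 in vivo and 3.05 in vitro. The helicase Wrn rose by 2.12 in vivo and 2.34 in vitro, the polymerase Polk by 2.18 in vivo and 2.25 in vitro, and Rpa3, the small partner of Rpa1, by 2.12 in vivo and 2.53 in vitro. These rises are again relative to the other genes on the array. Whether genes of this list passed the signal filter only through the arrays where they were high was not checked. The sizes of their falls are therefore no exact folds.

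In vivo and in vitro maturation were then compared directly. In adult in vivo MII oocytes, set against adult in vitro MII oocytes, 0 of 52 members passed with limma (0% of all genes higher, 0% lower), and 5 had an unadjusted p below 0.05 (9.62%, against 8.14% of all genes). In d26 oocytes 0 passed likewise (0.0582% of all genes higher, 0% lower), and 5 had an unadjusted p below 0.05 (9.62%, against 7.27%). Rad51c had the smallest p in both. At d26 it had 6.74 and 7.82 in vivo, against 5.96, 5.20 and 4.90 in vitro, with no overlap, as in adults. Its difference was 2.37 in adults (SE 0.54, adjusted p = 0.312) and 1.93 at d26 (SE 0.54, adjusted p = 0.362). Pms1 came next, with 8.81 and 8.15 at d26 in vivo, against 6.89, 7.01 and 7.56 in vitro, and its arrays did not overlap in adults either. Its difference was 1.32 in adults (SE 0.46, adjusted p = 0.526) and 1.33 at d26 (SE 0.46, adjusted p = 0.559). Arrays without overlap, higher in vivo, held for 9.62% of members in adults (9.18% of all genes) and 17.3% at d26 (11.2%).

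The difference between d26 and adult oocytes in their response to the way of maturation was itself tested, and 0 of 52 members passed (0% of all genes in either direction), with 0 at an unadjusted p below 0.05 (against 3.48% of all genes). The mean of the 2 differences was added after the data had been seen. Rad51c was then higher in vivo, by 2.15 (SE 0.38, adjusted p = 0.0328), and was the one member of 52 to pass (0.224% of all genes were higher and 0.0249% lower), with Pms1 at 1.32 (SE 0.32, adjusted p = 0.127). This call ended with intensities as deposited (adjusted p = 0.161), without the 4 dim arrays (0.0702), with the compared arrays alone (0.285), without the trend (0.0744), with that block for the title number (0.150), and in 11 of 15 settings that left out 1 array (0.0602 to 0.252): adult in vivo 2 or 3, adult in vitro 2, either GV array, either d26 in vivo array, d26 in vitro 3 or any d20 array. Without adult in vitro array 1, Fanci (2.12), Rad51c (3.27) and Xpc (6.37) passed in the adult comparison, which then rests on 1 dim in vitro array; 1.83% of all probe sets passed there, against 0.00444% with both arrays. Among the 82 other repair genes, Ube2t, the conjugating enzyme that works with Fancl, was higher in d26 in vivo MII oocytes by 2.61 (adjusted p = 0.0225), the one gene of that list to pass there. This call did not hold as deposited, with the compared arrays alone or without the trend, where 0 of all probe sets passed in that comparison. The d26 in vivo arrays were also those with the highest Gapdh ratios.

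**Figure D4:**
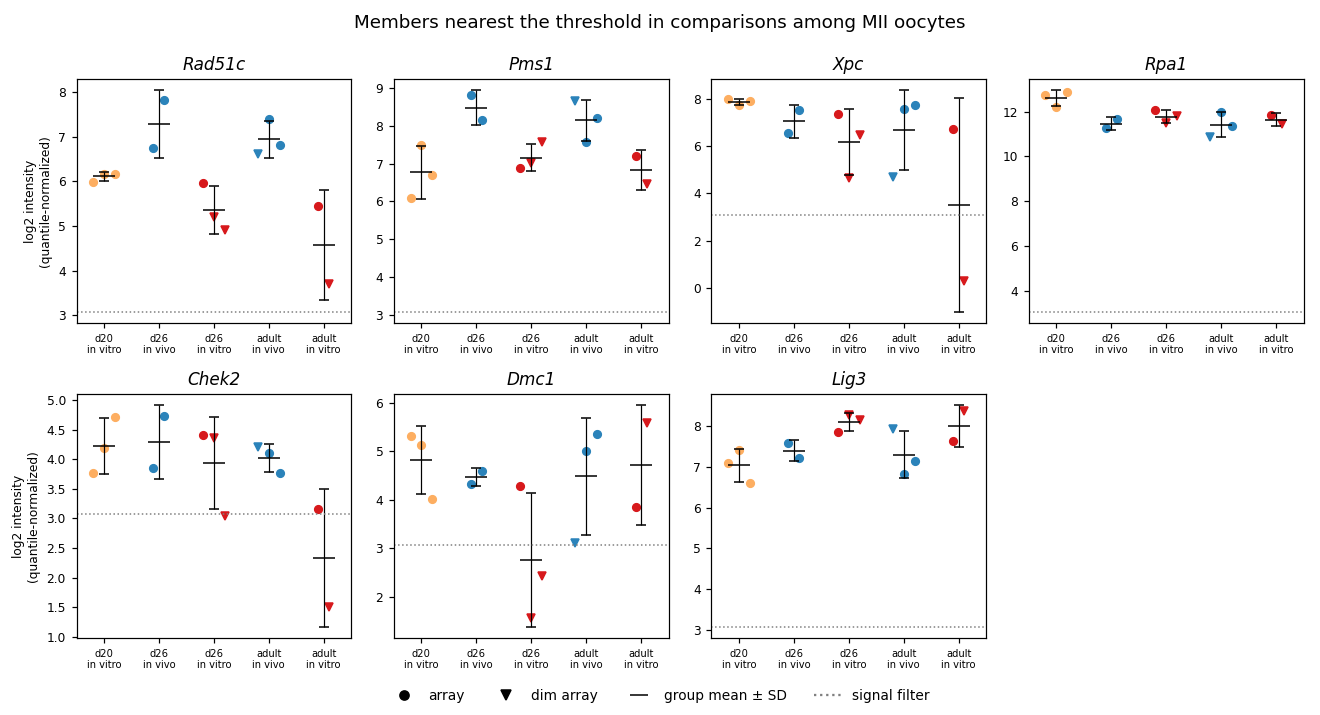
Log2 level on each array (points, with triangles for the 4 dim arrays), with group mean ± SD and the signal filter as a dotted line, in the 5 MII groups for the 7 members with the smallest p in comparisons among MII oocytes. The 5 in vivo arrays of Rad51c stand between 6.61 and 7.82 and the 8 in vitro arrays between 3.69 and 6.17.

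Age was compared among in vitro MII oocytes. With d20 set against adult oocytes 0 of 52 passed with limma (0.0249% of all genes higher, 0.00831% lower) and 6 had an unadjusted p below 0.05 (11.5%, against 19.2% of all genes). With d26 set against adult oocytes 0 passed (0% in either direction) and 1 had such a p (1.92%, against 7.36%). With d20 set against d26 oocytes 0 passed (0% in either direction) and 4 had one (7.69%, against 12%).

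Xpc and Rpa1 came nearest at d20 against adults. Xpc had 7.97, 7.72 and 7.89 in d20 oocytes, against 6.70 and 0.31 in adult oocytes, a difference of 4.36 (SE 1.36, adjusted p = 0.176) that turns on the dim adult array. Rpa1 had 12.74, 12.20 and 12.87 at d20, against 11.84 and 11.43 in adults. The arrays did not overlap, as for 22.1% of all genes that were higher at d20. Rpa1 differed by 0.97 (SE 0.31, adjusted p = 0.179). It was also nearest at d20 against d26, where the d26 oocytes had 12.06, 11.47 and 11.79 and the difference was 0.83 (SE 0.28, adjusted p = 0.414). Lig3 ran the other way there, with 7.09, 7.41 and 6.61 at d20, against 7.85, 8.27 and 8.16 at d26, and a difference of -1.06 (SE 0.36, adjusted p = 0.414). At d26 against adults, Chek2 had 4.41, 4.36 and 3.04, against 3.16 and 1.51, and Dmc1 4.28, 1.58 and 2.44, against 3.84 and 5.59. Both genes overlapped between the groups, with differences of 1.60 (SE 0.72, adjusted p = 0.677) and -1.95 (SE 0.92, adjusted p = 0.681). Without adult in vitro array 1, Fanci, Rad51c and Xpc passed at d20 against adults and Xpc at d26 against adults, where 3.38% and 1.35% of all probe sets then passed, against 0.0222% and 0.00444% with both arrays.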

How the data were processed

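Affymetrix arrays measured poly(A) RNA in 15 pools of oocytes in 6 groups. The deposited values are linear intensities of 45101 probe sets, which the authors computed using MAS5, as the submitters' processing notes state. The target to which MAS5 scaled each array is not given in the sources read, and detection calls were not used here. Control probe sets (64) were left out. Intensities were log2-transformed and quantile-normalized, since array medians ran from 5.08 to 25.3, and the upper 50% of probe sets by mean (22519) were tested. The number of arrays limits the precision.

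A limma (3.58.1, R 4.3.3) model with 1 coefficient per group, moderated variances with an intensity trend and 9 residual degrees of freedom gave each contrast. The Benjamini-Hochberg threshold was 0.05. The code was tested on simulated data. Of all probe sets, 34958 had 1 symbol in the platform annotation, 932 several and 9211 none; 34754 symbols were updated through the GRCm38.p6 gene table.

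Members and lists were chosen with earlier results of these data known, and no count over them is independent support. All members may be named; values by array were given for at most 6 rises and 6 falls per comparison, for 2 to 4 members per class and, where 0 passed, for the 2 smallest p. Alternatives were other scalings, filters, a pseudocount, variances without the trend, array weights, compared arrays only, the title number as a block, the next probe set and leaving out each array. The setting without 4 dim arrays and the mean of the d26 and adult differences were added after seeing the data.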

Additional observations from a re-analysis of the deposited data

How the results depend on the processing

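Counts of members in the comparisons with GV oocytes moved by over 1.5 times under the scaling of the arrays. They also did so with the compared arrays only and without certain single arrays. With intensities as deposited, 0 rose in vivo and 0 in vitro, and 21 fell in vitro. With arrays centred on their medians, 3 rose in vivo and 6 in vitro, and 17 fell in each. With the compared arrays only, 7 rose in vivo (11.9% of all probe sets, against 15.7% in the main setting). When 1 array was left out, rises ran from 5 to 13 in vivo and 6 to 13 in vitro, and falls from 7 to 10 in vivo and 7 to 13 in vitro. Rises in vivo were fewest without either GV array, and rises in vitro without either GV array or adult in vitro array 2. Falls in vitro were fewest without GV array 1. Each of these settings leaves 1 array in a group, and fewer of all probe sets passed there as well. Without adult in vivo array 3, 7 members rose in vivo (13.3% of all probe sets, against 15.7% with all arrays). Of the calls, 11 of 21 in vivo and 9 of 23 in vitro were kept whichever array was left out.

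Differences reversed as deposited in vitro for Blm (-1.0), Brca2 (-0.14), Ddb2 (-0.51), Fancd2 (-1.41), Fancm (-0.25), Lig4 (-0.38), Msh4 (-1.01), Palb2 (-0.99) and Xrcc4 (-0.25), and in vivo for Fancd2 (-0.03) and Palb2 (-0.43). With the next probe set, Fancc in vivo (-2.38), Fancd2 in vitro (-0.11), Fancm in vitro (-2.15) and Mre11a in vitro (0.83) reversed. The cause was not tested.

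Among MII groups, leaving out 1 array gave 0 to 3 members for adult in vivo against in vitro and for d20 against adults, 0 to 1 for d26 against adults, and 0 to 0 for d26 in vivo against in vitro, d20 against d26 and the test between d26 and adult differences. The mean of both ages, with 1 member, gave 0 to 3, and 0 as deposited, with compared arrays only, without the trend, with the title number as a block and without the dim arrays. No paired analysis was possible because the labels give no replicate numbers that groups share. Dim arrays and groups of 2 or 3 limit what could be detected.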
